A study of Homo sapiens with 24 samples.

Results

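The genes described here are 36 members of the endoplasmic reticulum (ER) chaperone and unfolded protein response programme, taken by symbol from 36468 entries of a count table. Members were listed by role, and no measured value entered the rule. Earlier results of these data were known when the list was made, so the members are not independent of them. They comprise 7 stress sensors and their transcription factors (ERN1, ATF6, ATF6B, EIF2AK3, XBP1, CREB3L1 and CREB3L2), 10 targets assigned to the ATF6 arm (HSPA5, HSP90B1, CALR, PDIA4, HYOU1, DNAJB11, SDF2L1, MANF, CRELD2 and HERPUD1), 10 assigned to the IRE1-XBP1 arm (DNAJB9, DNAJC3, EDEM1, SEC61A1, SEC61B, SEL1L, SYVN1, DERL1, DERL2 and DERL3) and 9 general secretory folding factors (CANX, PDIA3, PDIA6, P4HB, ERO1A, ERO1B, PPIB, FKBP11 and SERPINH1). Where a symbol had several entries, its first entry was used. All 36 members had enough counts to be tested, although DERL3 held only 1 to 24 counts per library.

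The measurements came from sensory neuron cultures made through vagal neural crest from H9WAO9, 1 line of human pluripotent stem cells. In each of 6 batches, parallel cultures received Vehicle (bovine serum albumin in PBS), TGF-β at 2 ng/ml, IL-6, or IL-4 at 10 ng/ml together with IL-13 at 3 ng/ml, written IL-4 + IL-13 below. Exposure lasted 5 days in the groups other than IL-6, for which neither a dose nor a duration was given in the sources used here. Polyadenylated RNA of each culture was sequenced, giving 24 libraries, 6 per treatment. The libraries represent whole cultures, of which neurons were only part, so a lower level of a transcript could reflect fewer cells of a type or less RNA per cell, which cannot be told apart in bulk RNA.

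Proteins that enter the secretory pathway fold in the ER with the help of chaperones and disulfide-forming enzymes. When unfolded proteins accumulate, the membrane sensors IRE1 (encoded by ERN1), ATF6 and PERK (encoded by EIF2AK3) become active. IRE1 splices the XBP1 mRNA into a form that encodes an active transcription factor, ATF6 is released from the membrane by cleavage in the Golgi, and PERK slows translation while favouring ATF4. Gene-level counts do not separate the spliced from the unspliced form of XBP1, so the activity of IRE1 itself was not measured. In fibroblast-like cells, SERPINH1 (HSP47, a chaperone of procollagen), P4HB and PPIB also serve the folding and modification of collagen.

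ATF6 and spliced XBP1 are known to act through ER stress response elements in promoters. Promoters of RefSeq genes on GRCh38.p14, from 250 bases before to 50 bases after the annotated start, were read for 33 members, and PDIA3, DERL1 and DERL3 had no entry there. An ER stress response element (ERSE) was taken as CCAAT followed by CCACG after 9 bases, and ERSE-II as ATTGG followed by CCACG after 1 base, on either strand and without mismatch. The following windows show the element in members on which the results below turn, 5′ to 3′ on the strand that carries it, with the paired motifs in capitals.
HSPA5: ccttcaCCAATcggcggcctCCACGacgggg
HSP90B1: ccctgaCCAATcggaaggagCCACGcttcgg
CRELD2: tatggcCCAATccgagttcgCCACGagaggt
XBP1: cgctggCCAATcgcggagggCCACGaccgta
ERO1B: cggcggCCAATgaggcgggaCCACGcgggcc
HYOU1: cctgggATTGGaCCACGtcacgg
The HSPA5 window lay at chr9:125241385-125241415 (minus strand) and the HSP90B1 window at chr12:103930210-103930240 (plus strand). The CRELD2 and XBP1 windows lay at chr22:49918548-49918578 and chr22:28800597-28800627, both on the minus strand. The ERO1B window lay at chr1:236282177-236282207 and the HYOU1 window at chr11:119057374-119057396, both on the plus strand. Each of these elements was upstream of the annotated start, with its far end between 52 bases (XBP1) and 243 bases (ERO1B) before it. Both HSP90B1 and HYOU1 held a second element within the same promoter.

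An ERSE or ERSE-II was present in 11 of 33 members with a promoter (33.3%), against 44 of all 27305 genes in the promoter table (0.161%). By list, it was found in 7 of 10 ATF6-arm members, 3 of 8 secretory folding factors, 1 of 7 sensors and 0 of 8 IRE1-XBP1-arm members. Beside the genes whose windows are printed, CALR, CANX and PDIA6 carried an ERSE, and HERPUD1 and SDF2L1 an ERSE-II. Members were assigned to the ATF6 arm from knowledge of such targets, so the element and the arm are not independent descriptions. The shorter TGACGTGG motif, the core of the unfolded protein response element, occurred in 1 of 33 members (HYOU1) and in 0.927% of all genes, overlapping one of the HYOU1 ERSE-II sequences. A match describes the letters of the window and not a bound site.

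Between 33342682 and 39817784 reads per library were counted, with a median of 35775126. Of the treatment checks, CISH and CCL26, targets of IL-4 and IL-13 signalling through STAT6, rose with IL-4 + IL-13 by 4.40 and 7.86 on the log2 scale (edgeR adjusted p = 7.07e-06 and 1.63e-06). SOCS1 had a log2 fold change of 0.58 there (adjusted p = 0.249, edgeR). With TGF-β against Vehicle, the TGF-β target genes SMAD7, SKIL and TGFBI had log2 fold changes of 0.14, 0.22 and 0.79 (edgeR adjusted p = 0.878, 0.177 and 0.374), and SKIL was higher in 6 of 6 batches and passed in DESeq2 (adjusted p = 0.0323). With IL-6, SOCS3, STAT3, IL6ST and BCL3, genes of the IL-6 and STAT3 pathway, had log2 fold changes of 0.09, -0.20, -0.19 and -0.22 (edgeR adjusted p = 0.882, 0.850, 0.860 and 0.850). The Vehicle library of batch 2 stood apart: over 17663 entries, its deviations from the Vehicle mean correlated at -0.00 on average with those of the other libraries of batch 2, and at 0.58 with those of batch 4. The Vehicle library of batch 4 mirrored this, with 0.18 for its own batch and 0.50 for batch 2, while the other 22 libraries had 0.36 to 0.88 with their own batch. An exchange of these 2 Vehicle libraries would give such a pair of values, and whether it took place was not tested. The Vehicle library of batch 2 also correlated at 0.54 with the treated libraries of batch 3, close to its value for batch 4. The labels were kept as given, and the main counts and medians against Vehicle are also given without batch 2 and without both Vehicle libraries.

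In Vehicle cultures, the luminal chaperones were among the more abundant members per length of transcript. Levels in CPM (counts scaled to library size with TMM factors) per kilobase of transcript were 515 ± 188 (mean ± SD, n = 6) for CALR (calreticulin, a lectin chaperone), 414 ± 122 for HSP90B1 (GRP94, the HSP90 of the ER), 313 ± 117 for PPIB (cyclophilin B, a prolyl isomerase) and 215 ± 46.6 for HSPA5 (BiP, the HSP70 of the ER). The spreads of CALR, HSP90B1 and PPIB between batches overlapped. These genes were measured in the same libraries, so that overlap does not settle their order. SERPINH1 stood at 110 ± 46.4 CPM per kilobase and XBP1 at 68.1 ± 7.09. The sensors lay well below, with 10.5 ± 1.54 CPM per kilobase for ATF6 and 1.79 ± 0.24 for ERN1. ERO1B (3.85 ± 0.59 CPM per kilobase) stood below its paralogue ERO1A (16.6 ± 2.23), and both enzymes reoxidize protein disulfide isomerases. DERL3, a derlin of the ER-associated degradation channel, stood at 0.04 ± 0.02 CPM per kilobase, near the floor of detection. That level is of its first entry alone, which held 30.7% of the counts of the symbol.

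**Figure D1:**
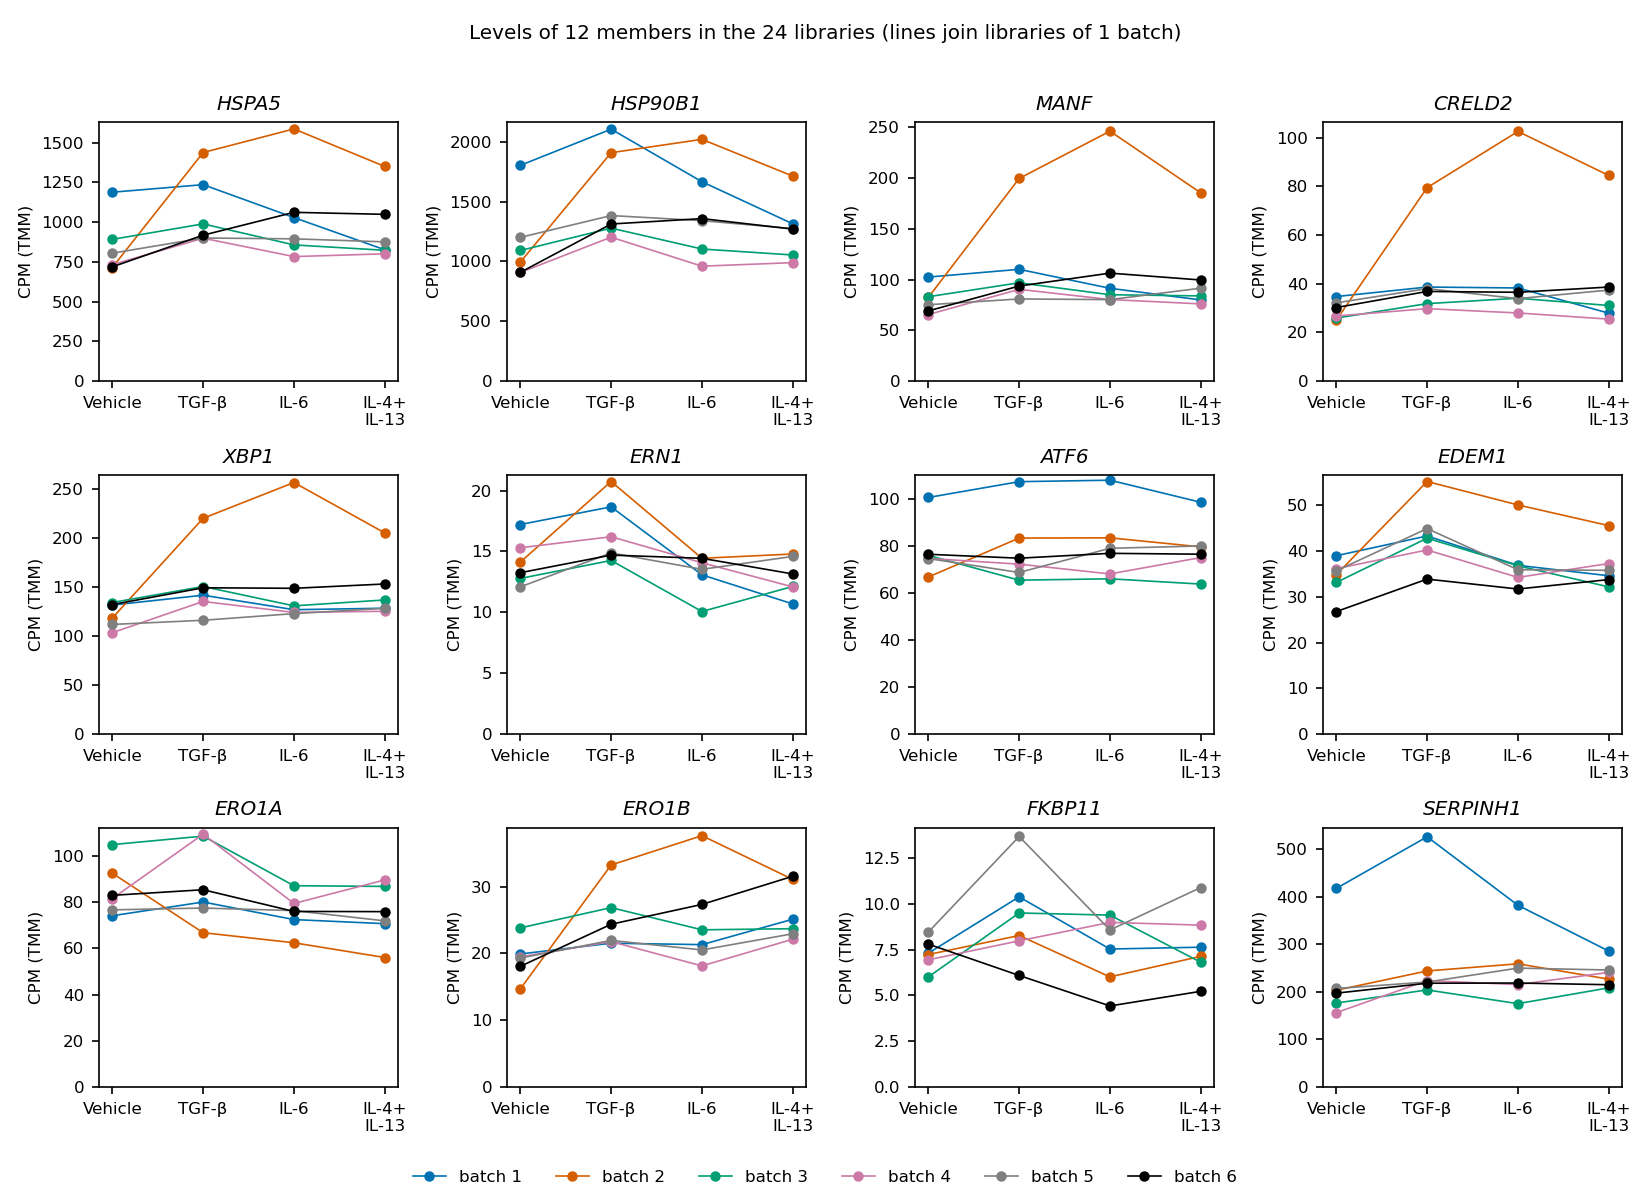
Levels of 12 members in the 24 libraries, in CPM scaled by TMM factors on axes that start at 0, by treatment, with 1 point per library and lines joining the libraries of 1 batch. The treated libraries of batch 2 lie at the top for MANF (185 to 246 CPM, against 65.5 to 110 CPM in the other 21 libraries), and the libraries of batch 1 lie at the top for SERPINH1.

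The level of the members depended on the batch before any treatment. In Vehicle, 25 of 36 members (69.4%) were highest in batch 1, as were 28.7% of all entries tested. The median member was 1.29-fold higher (as a ratio of CPM + 1) in batch 1 than the mean of batches 2 to 6, with 1.45-fold in the ATF6 arm and 1.49-fold among the secretory folding factors. HSPA5 stood at 1188 CPM in batch 1 and at 714, 891, 732, 804 and 718 CPM in batches 2 to 6. SERPINH1 showed the wider gap, with 418 CPM in batch 1 against 203, 177, 156, 207 and 197 CPM in the other Vehicle libraries. Batch 1 was also the Vehicle library with the most mesenchymal marker RNA (12 genes summed to 12641 CPM, against 4324 to 9418 CPM) and the least neuronal marker RNA (12 genes summed to 1842 CPM, against 4169 to 11181 CPM), and 0 of these 24 markers were at 0 in all libraries. The part of these markers in the batch 1 level was not tested. Over all 24 libraries, batch accounted for a median of 54.6% of the variance of a member and treatment for 13.6%, against 55.8% and 6.67% for all entries tested.

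The first comparison set TGF-β against Vehicle within batches. Most members were somewhat higher with TGF-β: 34 of 36 had a log2 fold change above 0, and the median was 0.25 (1.19-fold), against a median of -0.01 over all 29377 entries tested. A gene was called at an edgeR adjusted p under 0.05. No member was called (0 of 36, with 0.347% of all entries), while 18 of 36 members were higher and 0 lower at an unadjusted p under 0.05 (2.42% of all entries higher and 4.87% lower). DESeq2 called 2 of 36 members, EDEM1 and HSP90B1 (1.79% of all entries). In 15 of 36 members TGF-β was higher in each of the 6 batches (1.61% of all entries), and in 0 of 36 was it lower in each (2.62%). A shared sign in 6 of 6 batches gives the smallest p an exact sign-flip test over 6 batches can give (0.0312, two-sided). Without batch 2, the median was 0.15, 13 of 36 members were higher at an unadjusted p under 0.05 (4.36% of all entries) and 17 of 36 were higher in each of the 5 remaining batches (4.74%). Without the Vehicle libraries of batches 2 and 4, the median was 0.13 and 6 of 36 members were higher at that threshold (3.55% of all entries). In that fit 1 of 36 was lower, as were 1502 of 29133 entries.

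EDEM1, a lectin-like factor that directs misfolded glycoproteins to degradation, had the lowest p of the members. Its levels in batches 1 to 6 were 39.0, 34.8, 33.1, 36.2, 35.7 and 26.8 CPM in Vehicle and 43.3, 55.2, 42.8, 40.2, 44.9 and 33.9 CPM with TGF-β. TGF-β was higher in every batch by 1.11- to 1.58-fold, although the ranges of the 2 groups overlapped. The log2 fold change was 0.33 (SE 0.07) with an adjusted p of 0.0588 in edgeR and 0.00095 in DESeq2. Without batch 2 the log2 fold change was 0.26 (adjusted p = 0.107, edgeR).

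The 4 lists differed in their median, which was highest in the ATF6 arm. The median log2 fold change was 0.35 there, 0.27 among the secretory folding factors and 0.16 both in the IRE1-XBP1 arm and among the sensors. Without batch 2, these medians were 0.20, 0.19, 0.12 and 0.15, within 0.1 of each other. At an unadjusted p under 0.05, 8 of 10 ATF6-arm members, 4 of 9 secretory folding factors, 4 of 10 IRE1-XBP1-arm members and 2 of 7 sensors were higher (2.42% of all entries), and without batch 2 these counts were 6, 3, 3 and 1 (4.36%). Without the Vehicle libraries of batches 2 and 4 they were 2, 2, 2 and 0 (3.55%), and 1 sensor was lower. The medians in that fit were 0.18, 0.13, 0.07 and 0.11, in the same order.

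HSP90B1 stood at 1803, 994, 1091, 907, 1201 and 908 CPM in the Vehicle libraries of batches 1 to 6 and at 2105, 1908, 1278, 1202, 1383 and 1312 CPM with TGF-β. The difference had the same sign in 6 of 6 batches, with a log2 fold change of 0.40 (SE 0.12, adjusted p = 0.230 in edgeR and 0.046 in DESeq2), and 0.31 without batch 2. HYOU1 (GRP170, a nucleotide exchange factor for BiP) stood at 188, 152, 219, 133, 159 and 140 CPM in Vehicle and 228, 330, 242, 244, 197 and 160 CPM with TGF-β. It had a log2 fold change of 0.46 (SE 0.17, adjusted p = 0.418, edgeR), with the largest within-batch ratios in batches 2 and 4, and 0.25 without the Vehicle libraries of those batches. HSPA5 went from 1188, 714, 891, 732, 804 and 718 CPM to 1235, 1437, 989, 899, 900 and 917 CPM. Its ratio was 2.01-fold in batch 2 and 1.04- to 1.28-fold in the other batches, and its log2 fold change was 0.31 (SE 0.13, adjusted p = 0.592, edgeR), or 0.19 without batch 2.

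The sensors and factors did not all lie on one side of Vehicle. XBP1 stood at 132, 118, 134, 103, 112 and 132 CPM in Vehicle and 142, 220, 151, 135, 116 and 149 CPM with TGF-β, a log2 fold change of 0.28 (SE 0.10, adjusted p = 0.433, edgeR), or 0.17 without batch 2. Levels of ERN1 were 17.2, 14.1, 12.8, 15.3, 12.1 and 13.2 CPM in Vehicle and 18.7, 20.7, 14.3, 16.2, 14.9 and 14.7 CPM with TGF-β (log2 fold change 0.22, SE 0.10, adjusted p = 0.650, edgeR, and 0.15 without batch 2). Both genes were higher with TGF-β in 6 of 6 batches, by ratios of at least 1.04 (XBP1) and 1.06 (ERN1). ATF6 itself, at 101, 66.8, 76.0, 74.7, 74.6 and 76.5 CPM in Vehicle and 107, 83.3, 65.4, 72.3, 68.7 and 74.8 CPM with TGF-β, had a log2 fold change of -0.00 (SE 0.06), higher in 2 and lower in 4 batches. The sign of that value for ATF6 depended on the normalization. ATF6B and EIF2AK3 had log2 fold changes of -0.09 and 0.04.

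Of the secretory folding factors, SERPINH1 went from 418, 203, 177, 156, 207 and 197 CPM in Vehicle to 526, 244, 204, 224, 221 and 218 CPM with TGF-β. It was higher in 6 of 6 batches with a log2 fold change of 0.26 (SE 0.11, adjusted p = 0.551, edgeR), 0.25 without batch 2 and 0.17 without the Vehicle libraries of batches 2 and 4. PDIA3, an oxidoreductase that works with the lectin chaperones, and ERO1B were likewise higher in 6 of 6 batches. Log2 fold changes of the 9 factors ran from 0.02 (ERO1A) to 0.34 (ERO1B).

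**Figure D2:**
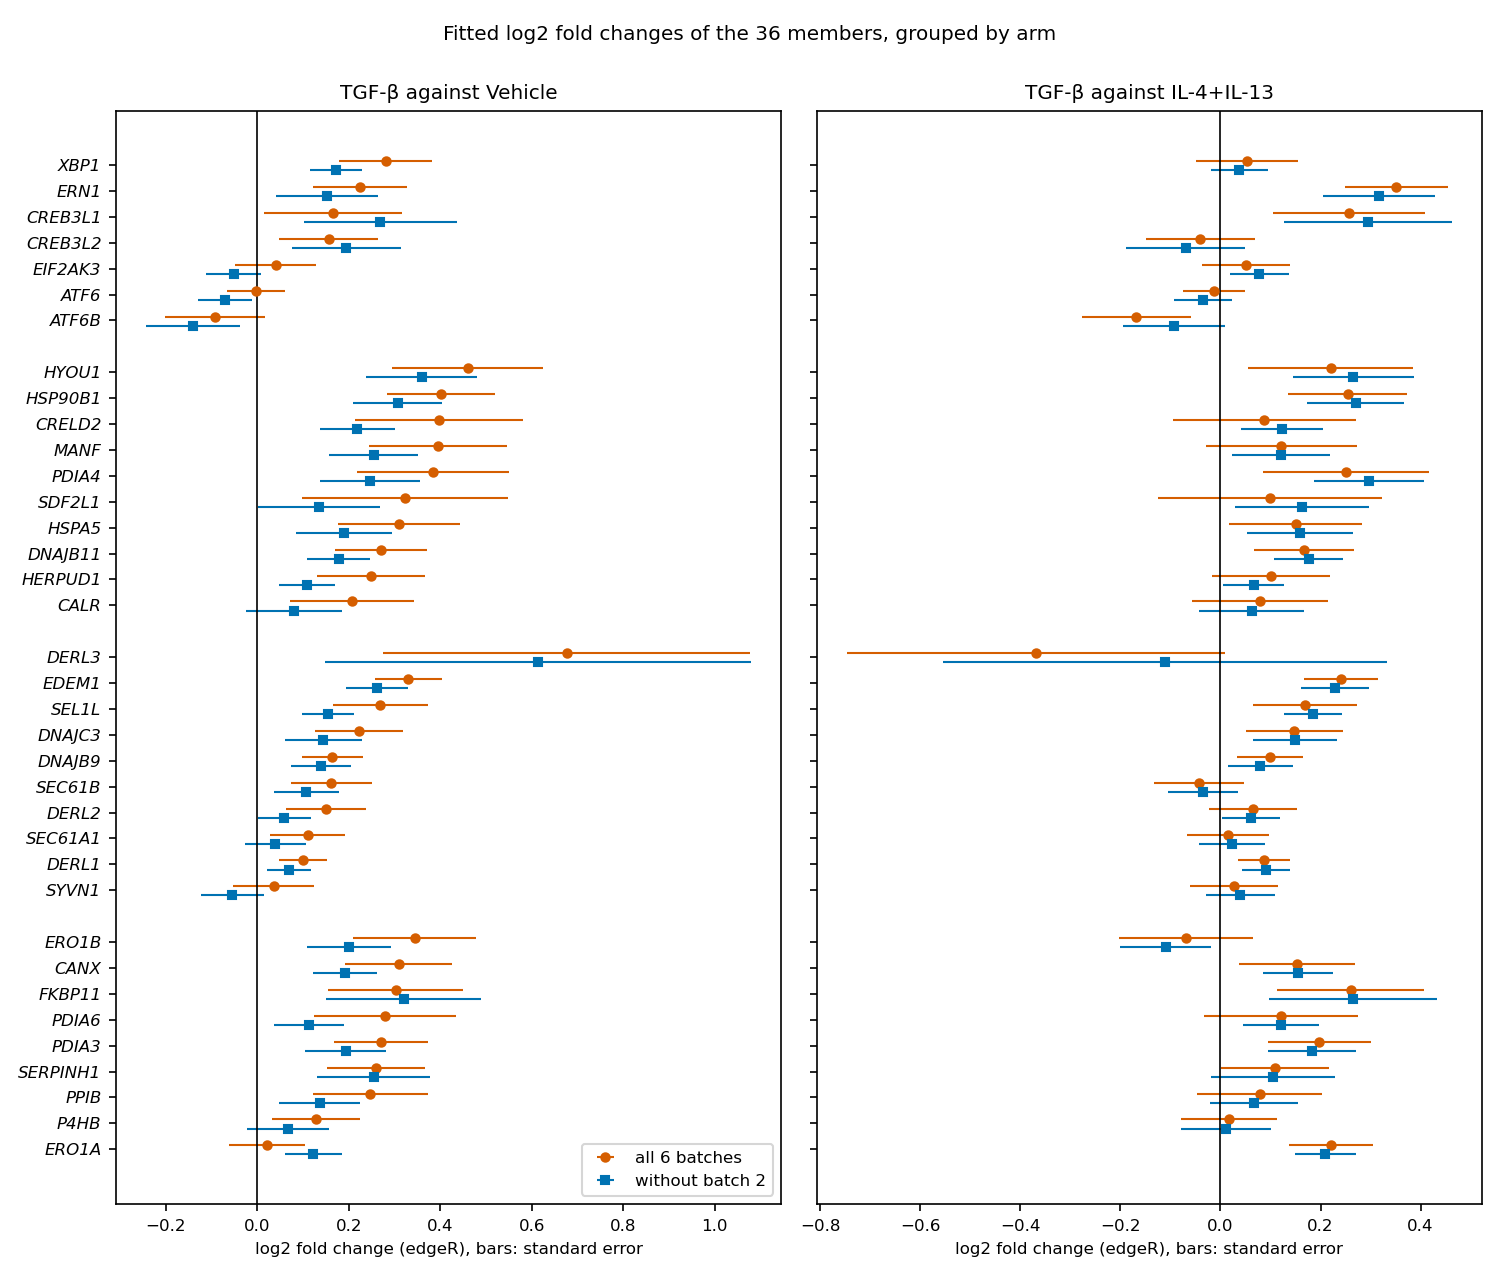
Log2 fold change from edgeR for each of the 36 members, in blocks by list (sensors, ATF6 arm, IRE1-XBP1 arm, secretory folding), for TGF-β against Vehicle (left) and against IL-4 + IL-13 (right), with circles for all 6 batches, squares for the fit without batch 2 and bars for the standard error. Against Vehicle, values of the ATF6 arm lie between 0.21 and 0.46 with all batches, and each is closer to 0 without batch 2.

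A single batch carried much of the difference. In batch 2, TGF-β exceeded Vehicle by more than 1.5-fold (as a ratio of CPM + 1) in 20 of 36 members (9.25% of all entries), including 10 of 10 of the ATF6 arm, and in any other batch this held for at most 2 of 36. The largest of the 6 differences was that of batch 2 in 28 of 36 members (29.3% of all entries). The median difference of the ATF6 arm on the log2(CPM + 1) scale was 1.08 in batch 2, and 0.09, 0.15, 0.33, 0.18 and 0.30 in batches 1, 3, 4, 5 and 6. In the same batch, 23 of 36 members were more than 1.5-fold higher with IL-6 (10.8% of all entries) and 18 of 36 with IL-4 + IL-13 (9.33%), and batch 2 held the largest difference in 29 of 36 members in each (28.7% and 26.6% of all entries). With these treatments, the ATF6-arm median of batch 2 was 1.34 (IL-6) and 1.03 (IL-4 + IL-13). All 3 values use the same Vehicle library, so they are not separate observations of its level.

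CRELD2, an ER-resident protein secreted under stress, stood at 25.02 CPM in the Vehicle library of batch 2 and at 79.5, 103 and 84.5 CPM with TGF-β, IL-6 and IL-4 + IL-13. In the other 5 batches it stood between 25.4 and 38.6 CPM in all 20 libraries. MANF, a secreted neurotrophic factor retained in the ER, was at 82.3 CPM in that Vehicle library and at 200, 246 and 185 CPM in the treated ones, against 65.5 to 110 CPM in the other batches. The Vehicle level of batch 2 lay within those of the other Vehicle libraries for MANF (65.5 to 102 CPM) and just below them for CRELD2 (25.9 to 34.7 CPM), and the 3 treated levels of both genes lay above each library of the other batches. Members together made up 0.659% of the counts of the Vehicle library of batch 2 and 1.18%, 1.30% and 1.10% of those treated with TGF-β, IL-6 and IL-4 + IL-13, against 0.645% to 1.14% in the other 20 libraries. ERO1A lay on the other side of Vehicle, from 92.6 CPM to 66.8, 62.5 and 56.1 CPM.

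Markers of other cell types differed in the same libraries. The 9 cell cycle markers summed to 104 CPM in the Vehicle library of batch 2 and to 474, 551 and 606 CPM with TGF-β, IL-6 and IL-4 + IL-13, against 57.3 to 211 CPM in the other batches. The 12 neuronal markers summed to 8884 CPM in that Vehicle library and to 5347, 5740 and 5719 CPM in the treated ones, and the 12 mesenchymal markers to 9418 CPM and to 5623, 4363 and 4281 CPM. The 10 Schwann cell and glial markers stood at 168 CPM and at 220, 170 and 146 CPM. No marker was at 0 in all libraries, and the part of these differences in the chaperone levels was not tested. With the Vehicle library of batch 2 alone left out of the fit, the median log2 fold change of the members with TGF-β was 0.15, and 11 of 36 were higher at an unadjusted p under 0.05 (4.09% of all entries).

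**Figure D3:**
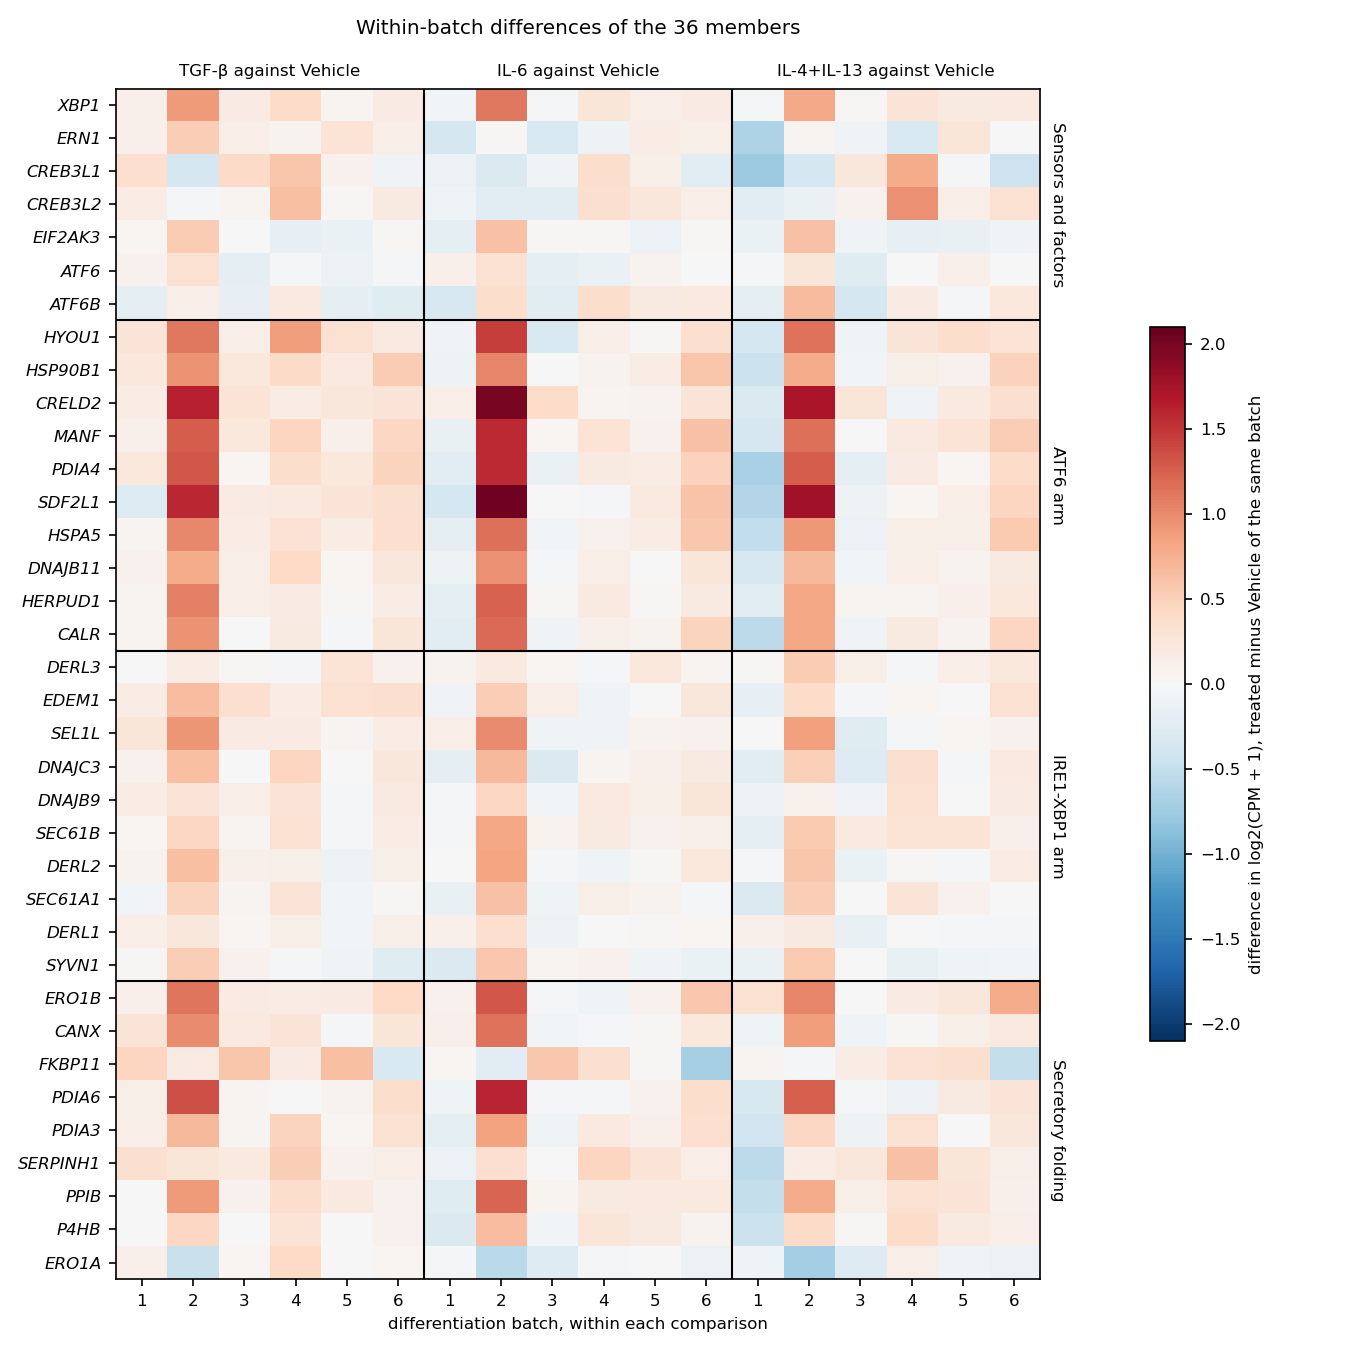
Difference from Vehicle of the same batch on the log2(CPM + 1) scale for each of the 36 members (rows, by list) in each batch (columns, in blocks of 6 by treatment), coloured by sign and size. The batch 2 column stands out in each block, with ATF6-arm medians of 1.08, 1.34 and 1.03, while the column of batch 1 is negative for the ATF6 arm with IL-4 + IL-13 (median -0.41).

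With IL-6, the members were near Vehicle once batch 2 was left out. The median log2 fold change was 0.19 with all batches, 0.05 without batch 2 and 0.06 without the Vehicle libraries of batches 2 and 4. By edgeR, 0 of 36 members and 0 of 29377 entries (0%) were called, and DESeq2 called 0 of 36 members and 0.568% of all entries. At an unadjusted p under 0.05, 7 of 36 members were higher and 1, ERO1A, was lower (2.32% and 2.44% of all entries), and without batch 2 only CRELD2 remained under that threshold among the members (1.14% of all entries higher).

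CRELD2 was the only member higher with IL-6 in 6 of 6 batches (1.22% of all entries), from 34.7, 25.02, 25.9, 26.7, 32.1 and 30.2 CPM in Vehicle to 38.3, 103, 34.03, 27.98, 33.9 and 36.5 CPM. Outside batch 2 the ratio was 1.05- to 1.32-fold, and the log2 fold change was 0.44 (SE 0.18, adjusted p = 0.850, edgeR), or 0.19 without batch 2. ERO1A was lower in 6 of 6 batches (1.11% of all entries), from 74.2, 92.6, 105, 81.6, 76.7 and 83.0 CPM to 72.5, 62.5, 87.2, 79.5, 76.4 and 76.0 CPM, with a log2 fold change of -0.18 (adjusted p = 0.850, edgeR). In batches 1, 4 and 5 the difference for ERO1A was under 0.05 on the log2(CPM + 1) scale, so its shared sign rested in part on small differences.

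The other members with the lowest p under IL-6 were MANF, XBP1 and DNAJB9. MANF stood at 102, 82.3, 83.1, 65.5, 75.2 and 69.1 CPM in Vehicle and 91.3, 246, 85.0, 80.3, 80.2 and 106 CPM with IL-6, a log2 fold change of 0.38 (SE 0.15). XBP1 with IL-6 stood at 127, 257, 131, 124, 123 and 149 CPM (log2 fold change 0.26, SE 0.10). Both were higher in batches 2, 4, 5 and 6, and lower in batch 1. DNAJB9 (ERdj4, a BiP cochaperone that also restrains IRE1) went from 92.2, 76.0, 94.0, 68.6, 87.4 and 93.4 CPM to 91.1, 103, 89.9, 79.3, 95.5 and 112 CPM, a log2 fold change of 0.16 (SE 0.07). All 3 had an adjusted p of 0.850 in edgeR, the same as CRELD2.

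With IL-6, HSPA5 stood at 1028, 1586, 856, 783, 894 and 1061 CPM, higher than Vehicle in 4 and lower in 2 batches (log2 fold change 0.26, SE 0.13, and 0.10 without batch 2). Levels of SERPINH1 were 382, 259, 175, 215, 250 and 219 CPM (log2 fold change 0.18). For ERN1, 13.1, 14.4, 10.1, 14.1, 13.5 and 14.4 CPM gave a log2 fold change of -0.09, and for ATF6, 108, 83.5, 66.0, 68.1, 79.0 and 76.9 CPM gave 0.03. Neither sensor was shifted in one direction, each being higher in 3 (ERN1) or 4 (ATF6) of 6 batches. By list, the median log2 fold changes were 0.27 in the ATF6 arm, 0.14 in the IRE1-XBP1 arm, 0.20 among the secretory folding factors and 0.03 among the sensors, and without batch 2 they were 0.08, 0.02, 0.06 and -0.01.

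With IL-4 + IL-13, the members had the lowest median of the 3 treatments against Vehicle. The median log2 fold change was 0.12, 0.02 without batch 2 and -0.01 without the Vehicle libraries of batches 2 and 4. By edgeR, 0 of 36 members were called, with 0.633% of all entries, and DESeq2 called 0 of 36 and 1.98%. At an unadjusted p under 0.05, ERO1B, DERL3, SEC61B and XBP1 were higher and ERO1A was lower (4.42% of all entries higher and 4.68% lower), and 0 of 36 members had the same sign in 6 of 6 batches (2.28% of all entries higher and 1.87% lower). Without batch 2, 3 of 36 members were higher at that threshold (4.51% of all entries), 2 sensors and 1 secretory folding factor. DERL3 and SEC61B were thus no longer among them, and 1 sensor was lower (1104 of 28930 entries). List medians were 0.15 in the ATF6 arm, 0.09 in the IRE1-XBP1 arm, 0.15 among the secretory folding factors and 0.01 among the sensors, and without batch 2 they were 0.03, 0.01, 0.06 and -0.04.

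ERO1B had the lowest p, from 19.9, 14.7, 23.8, 19.5, 19.3 and 18.1 CPM in Vehicle to 25.1, 31.1, 23.7, 22.1, 22.9 and 31.5 CPM. It was higher in 5 of 6 batches, with a log2 fold change of 0.41 (SE 0.13, adjusted p = 0.271, edgeR), and 0.31 without batch 2. Its ratio was 0.995 in batch 3 and up to 2.12 in batch 2. ERO1A went from 74.2, 92.6, 105, 81.6, 76.7 and 83.0 CPM to 70.7, 56.1, 86.9, 89.7, 71.9 and 75.9 CPM (log2 fold change -0.20, SE 0.08, adjusted p = 0.475, edgeR). By fitted log2 fold change, the 2 oxidoreductin paralogues thus lay on opposite sides of Vehicle, with neither passing the adjusted test. ERO1A was above Vehicle in batch 4, and its log2 fold change ran from -0.26 to -0.09 when each batch was left out in turn. Without batch 2, ERO1A was not lower at an unadjusted p under 0.05 (edgeR).

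SEC61B, the beta subunit of the translocation channel, stood at 54.4, 39.7, 34.3, 33.1, 36.5 and 38.0 CPM in Vehicle and 47.3, 58.5, 39.5, 40.8, 44.7 and 41.0 CPM with IL-4 + IL-13 (log2 fold change 0.21, SE 0.09, adjusted p = 0.499, edgeR). XBP1 with IL-4 + IL-13 stood at 128, 205, 137, 125, 128 and 153 CPM (log2 fold change 0.23, SE 0.10, adjusted p = 0.513, edgeR). Both were lower than Vehicle in batch 1 and higher in the other 5 batches. For DERL3 the log2 fold change was 1.05 (SE 0.39, adjusted p = 0.386, edgeR) on 1 to 24 counts per library, and it ran from 0.72 to 1.36 when each batch was left out in turn.

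With IL-4 + IL-13, the members were lowest against Vehicle in batch 1. There, 0 of 10 ATF6-arm members were higher than Vehicle, and their median difference was -0.41 on the log2(CPM + 1) scale, against 1.03, -0.06, 0.13, 0.11 and 0.42 in batches 2 to 6. HSPA5 with IL-4 + IL-13 stood at 826, 1350, 822, 800, 876 and 1049 CPM, compared with 1188 CPM in the Vehicle library of batch 1 (log2 fold change 0.16, SE 0.13). SERPINH1 stood at 286, 227, 209, 241, 246 and 215 CPM, compared with 418 CPM in that Vehicle library (log2 fold change 0.15, SE 0.11), so both genes were below Vehicle in batch 1 and near or above it elsewhere, except HSPA5 in batch 3. In the same pair of libraries, the mesenchymal markers went from 12641 to 5890 CPM and 22 collagen-processing genes from 2979 to 2165 CPM, and the part of these in the batch 1 values was not tested. Without batch 1, the median log2 fold change of the ATF6 arm was 0.30. ERN1 at 10.7, 14.8, 12.1, 12.1, 14.6 and 13.1 CPM and ATF6 at 98.6, 79.6, 63.8, 75.1, 80.0 and 76.5 CPM had log2 fold changes of -0.13 and 0.01.

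The cytokines were also compared directly, in contrasts that do not use the Vehicle library of batch 2 as the reference. TGF-β against IL-4 + IL-13 gave a median log2 fold change of 0.10 over the members (0.11 without batch 2), with 30 of 36 above 0. In edgeR, 0 of 36 members passed (2.98% of all entries called), 4 of 36 were higher with TGF-β and 0 of 36 lower at an unadjusted p under 0.05 (5.04% and 7.2% of all entries) and 8 of 36 were higher in 6 of 6 batches (4.29% of all entries). DESeq2 called ERN1 (adjusted p = 0.018) and EDEM1 (adjusted p = 0.020), 2 of 36 members, with 5.33% of all entries. Without batch 2, 9 of 36 members were higher with TGF-β at an unadjusted p under 0.05 (6.88% of all entries).

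ERN1 stood at 18.7, 20.7, 14.3, 16.2, 14.9 and 14.7 CPM with TGF-β and at 10.7, 14.8, 12.1, 12.1, 14.6 and 13.1 CPM with IL-4 + IL-13, a log2 fold change of 0.35 (SE 0.10, adjusted p = 0.0778, edgeR). EDEM1 stood at 43.3, 55.2, 42.8, 40.2, 44.9 and 33.9 CPM and at 34.6, 45.6, 32.2, 37.3, 35.8 and 33.8 CPM, a log2 fold change of 0.24 (SE 0.07, adjusted p = 0.0947, edgeR). In both genes TGF-β was the higher of the pair in 6 of 6 batches, although EDEM1 in batch 6 stood at 33.9 against 33.8 CPM. ERO1A (80.1, 66.8, 109, 109, 77.5 and 85.4 CPM with TGF-β) and HSP90B1 had log2 fold changes of 0.22 (SE 0.08, adjusted p = 0.228, edgeR) and 0.25 (SE 0.12, adjusted p = 0.390, edgeR), also with the same sign in 6 of 6 batches. When the Vehicle library of batch 2 was left out of the fit, which entered this contrast only through the batch terms and the estimate of the spread, ERN1, EDEM1 and ERO1A passed the edgeR threshold, with adjusted p of 0.0479, 0.0224 and 0.0252, and they did so without the Vehicle libraries of batches 2 and 4 (adjusted p = 0.0435, 0.0179 and 0.0157). In those 2 fits 3 of 36 members were called, beside 1443 of 29271 and 1676 of 29133 entries, against 874 of 29377 in the main fit. These alternatives were chosen after the data were seen. When the whole of batch 2 was left out, 0 of 36 members passed (1423 of 28930 entries).

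Against IL-6, TGF-β showed the same leading members, ERN1, EDEM1 and ERO1A, and these contrasts share the TGF-β libraries. The median over the members was 0.03 (0.08 without batch 2). Their log2 fold changes were 0.32, 0.21 and 0.20 (SE 0.10, 0.07 and 0.08), each higher with TGF-β in 6 of 6 batches, with adjusted p of 0.340, 0.436 and 0.560 in edgeR. FKBP11, a prolyl isomerase of secretory cells, followed with 0.31 (SE 0.15, adjusted p = 0.667, edgeR), from 7.53, 6.01, 9.39, 8.99, 8.58 and 4.43 CPM with IL-6 to 10.4, 8.27, 9.50, 7.98, 13.7 and 6.09 CPM with TGF-β. In all, 0 of 36 members passed the adjusted test in edgeR (0.0783% of all entries) or DESeq2 (1.7%). At an unadjusted p under 0.05, 3 of 36 were higher and 0 lower (2.99% and 4.51% of all entries), 5 of 36 were higher without batch 2 (4.33%) and 3 of 36 were higher in 6 of 6 batches (3.6% of all entries).

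IL-4 + IL-13 against IL-6 gave a median log2 fold change of -0.04 over the members (-0.02 without batch 2). By edgeR, 0 of 36 members passed after adjustment (0.456% of all entries), DESeq2 called 0 of 36 (1.28%), and 0 of 36 had an unadjusted p under 0.05 in either direction (2.47% of all entries higher and 2.1% lower). In 0 of 36 members was IL-4 + IL-13 higher in 6 of 6 batches and in 1 of 36 lower (2.55% and 2.07% of all entries). The 4 members with the lowest p were CREB3L2, DNAJB9, PDIA3 and HSP90B1, with log2 fold changes of 0.18, -0.09, -0.12 and -0.13. All 4 had an adjusted p of 1.0 in edgeR. CREB3L2, a membrane-bound factor that acts on the secretory apparatus, stood at 223, 129, 162, 207, 141 and 140 CPM with IL-4 + IL-13 and 245, 120, 129, 135, 150 and 124 CPM with IL-6, higher in batches 2, 3, 4 and 6.

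**Figure D4:**
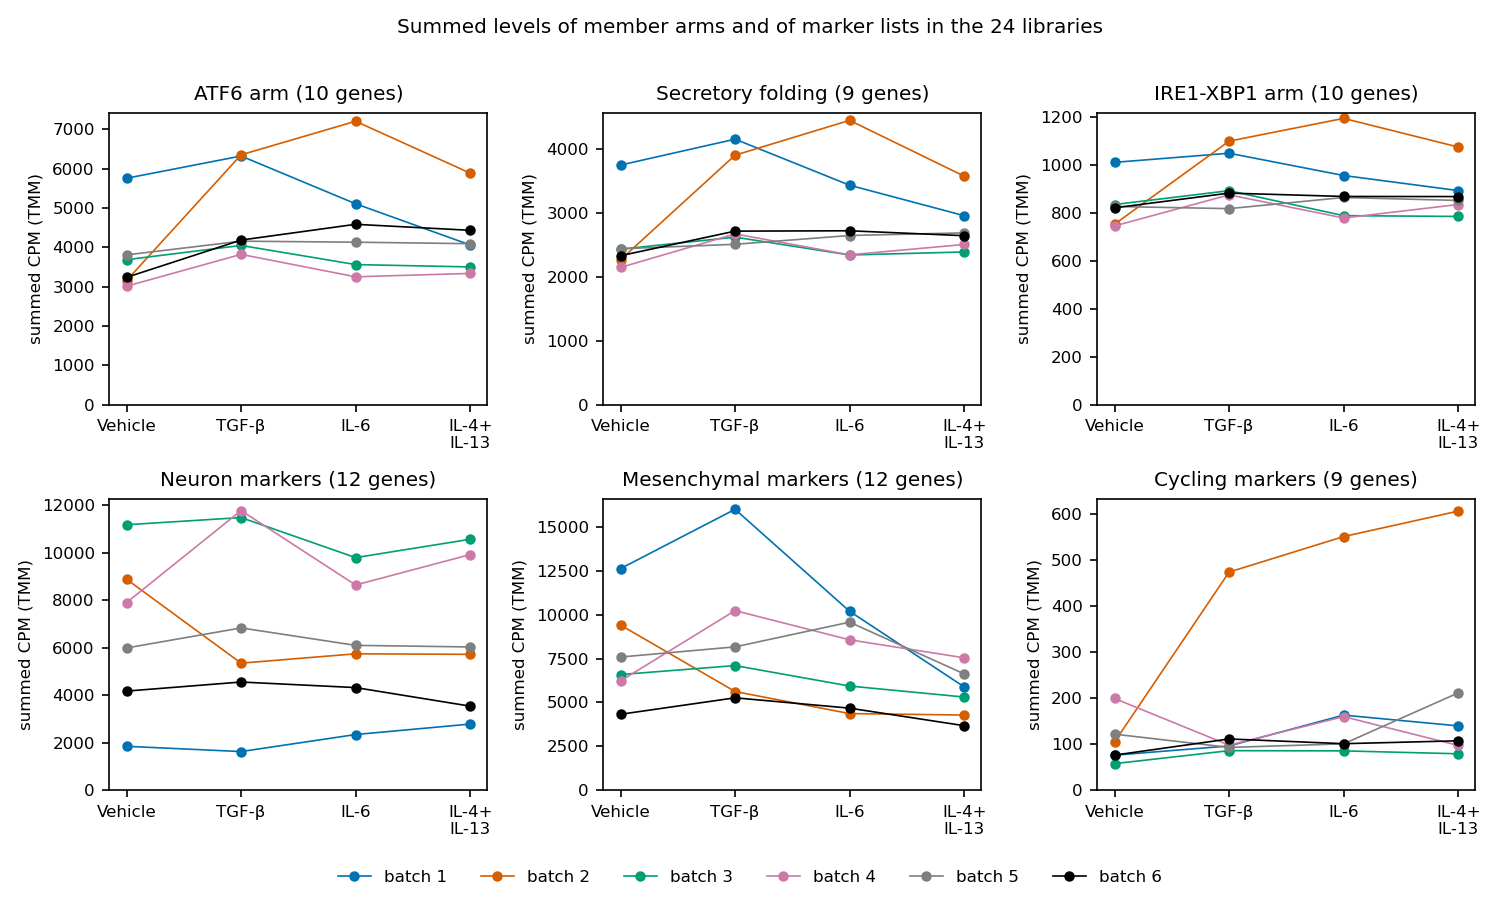
Summed CPM of the ATF6 arm, the secretory folding factors, the IRE1-XBP1 arm and the neuronal, mesenchymal and cell cycle markers in the 24 libraries, with 1 point per library, lines joining the libraries of 1 batch and axes that start at 0. In batch 2 the ATF6 arm goes from 3155 CPM in Vehicle to 6353, 7207 and 5887 CPM with TGF-β, IL-6 and IL-4 + IL-13, beside a cell cycle sum of 104 CPM in Vehicle and 474, 551 and 606 CPM in the treated libraries.

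Genes around the programme were described from lists of the same kind. Of 12 genes of the PERK-ATF4 branch, 4 were higher and 0 lower with TGF-β at an unadjusted p under 0.05 (2.42% and 4.87% of all entries). The list median was 0.14 and 0 were called (0.347% of all entries). Without batch 2, 3 were higher (4.36%) and the median was 0.09. The genes higher with TGF-β were led by DDIT3 (CHOP, a stress-induced transcription factor, log2 fold change 0.38, adjusted p = 0.285, edgeR), ASNS (asparagine synthetase, 0.35, adjusted p = 0.332, edgeR) and TRIB3 (0.33, adjusted p = 0.373, edgeR), each higher in 6 of 6 batches. Under IL-6, 4 of 12 were also higher at that threshold (2.32% of all entries), and 1 of 12 without batch 2 (1.14%). With IL-6, DDIT3 had a log2 fold change of 0.44 (adjusted p = 0.850, edgeR), or 0.28 without batch 2. With IL-4 + IL-13, 4 of 12 were higher with all batches and without batch 2 (4.42% and 4.51% of all entries), led by TRIB3 at 0.32 (adjusted p = 0.340, edgeR). Without the Vehicle libraries of batches 2 and 4, 0 of 12 were higher with IL-4 + IL-13 (1249 of 29133 entries). In that fit 2 of 12 were higher with TGF-β (3.55% of all entries) and 1 of 12 with IL-6 (729 of 29133 entries). The summed level of this branch in batch 2 was 930 CPM in Vehicle and 1317, 1460 and 1286 CPM with the 3 treatments, against 782 to 1159 CPM in the other batches.

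Of 23 subunits of the translocon, signal peptidase and oligosaccharyltransferase, 3 were higher with TGF-β at an unadjusted p under 0.05 (2.42% of all entries). The list median was 0.11. Without batch 2, 2 were higher (4.36% of all entries) and the median was 0.05. SPCS3, a signal peptidase subunit, had a log2 fold change of 0.30 (adjusted p = 0.141 in edgeR and 0.0239 in DESeq2), higher in 6 of 6 batches. The 16 other genes of ER-associated degradation had a median of 0.01 and 0 with an unadjusted p under 0.05. The 14 cytosolic and mitochondrial heat shock genes had a median of -0.03 and likewise 0 (2.42% of all entries higher and 4.87% lower). In lists of this size, a count of 0 is near those shares. Without batch 2, 1 of the 16 and 0 of the 14 were higher (4.36% of all entries). With IL-6 these 2 lists had medians of 0.01 and -0.01, and with IL-4 + IL-13 0.02 and -0.02. CRYAB, a small heat shock protein, stood apart from its list with IL-4 + IL-13, with a log2 fold change of -0.61 (adjusted p = 0.130 in edgeR and 0.0225 in DESeq2).

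The 22 collagen-processing genes had a median log2 fold change of 0.02 with TGF-β, -0.05 with IL-6 and -0.06 with IL-4 + IL-13 against Vehicle. In each of these comparisons 0 were called (0.347%, 0% and 0.633% of all entries). With TGF-β, 3 were higher and 1, P3H2, was lower at an unadjusted p under 0.05 (2.42% and 4.87% of all entries). In TGF-β against IL-4 + IL-13, P4HA3, a catalytic subunit of collagen prolyl 4-hydroxylase, was higher with TGF-β by 1.30 on the log2 scale (adjusted p = 0.0274, edgeR). In that contrast, COL1A1, the alpha1 chain of type I collagen and one of the mesenchymal markers, was also higher with TGF-β, by 1.31 on the log2 scale (adjusted p = 0.00675, edgeR). The 12 mesenchymal markers had a median of 0.08 there, with 7 above 0, a lowest value of -0.30 and 1 called (2.98% of all entries). SERPINH1, the procollagen chaperone, had a log2 fold change of 0.11 in the same contrast.

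Members were also grouped by promoter element. The 11 members with an ERSE or ERSE-II had a median log2 fold change with TGF-β of 0.31, and the 22 members whose promoter held neither had 0.16. Without batch 2 the medians were 0.19 and 0.14. The corresponding values were 0.26 and 0.11 with IL-6 and 0.16 and 0.09 with IL-4 + IL-13, all 3 against the same Vehicle libraries. Without batch 2 they were 0.08 and 0.03 with IL-6 and 0.04 and -0.00 with IL-4 + IL-13. These medians carry no test, since the arm assignment drew on the same knowledge as the element.

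Of the members, 4 had more than 1 entry in the table. The first entry held 35.7% of the counts of ATF6B (4 entries), 56.5% of CANX (2 entries), 57.7% of HYOU1 (2 entries) and 30.7% of DERL3 (2 entries), so how reads were divided between near-identical entries is uncertain. For CANX (calnexin), the 2 entries had log2 fold changes with TGF-β of 0.31 and 0.10, and for HYOU1 0.46 and 0.35. For ATF6B they ran from -0.13 to 0.24. With IL-4 + IL-13, the 2 entries of DERL3 had log2 fold changes of 1.05 and 0.53. Summing the entries of each symbol brought EDEM1, a gene with 1 entry, under the threshold with TGF-β (adjusted p = 0.045), and called no other member.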

How the data were processed

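RNA of 24 cultures, 4 treatments in 6 batches, was sequenced on an Illumina instrument, and the authors deposited raw read counts per gene entry. Per the labels, Trimmomatic 0.30 removed adapters and reads were mapped to GRCh38.p14. Strandedness, the annotation release and the programs that mapped and counted reads are not given in the sources used here, so reads of overlapping genes may be shared. Groups and batches were taken from the labels.

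Members and lists were chosen with earlier results of these data known, and are not independent of them. Entries with a total of at least 10 counts (29377 of 36468) were tested in 1 fit of all 24 libraries with edgeR 4.0.16 in R 4.3.3 (TMM factors, quasi-likelihood test with robust dispersions), with terms for treatment and batch, and p values were adjusted by Benjamini-Hochberg over every entry tested. The study used DESeq2, whose Wald test (version 1.42.0) served as an alternative with the same terms. A call required an adjusted p under 0.05. Each standard error was obtained by dividing the absolute log2 fold change by the root of its F statistic. Within-batch differences were taken on log2(CPM + 1), and their exact two-sided sign-flip test has a smallest p of 0.0312 with 6 batches. Transcript lengths came from GENCODE 44 and promoters from RefSeq on GRCh38.p14.

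The batch is a block because the labels place 1 library of each treatment in each batch. Over 17663 entries, deviations from the treatment means correlated within a batch by -0.00 to 0.88 on average per library, the lowest being the Vehicle libraries of batches 2 and 4. Libraries from separate batches were the replicates, all of 1 cell line, and 0 pairs of libraries were identical.

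Named in each comparison with Vehicle were HSPA5, XBP1, ATF6, ERN1 and SERPINH1, in each comparison any called member and the 4 members with the lowest p, and of other lists at most the 3 genes with the lowest p. MANF, CRELD2 and ERO1A in batch 2 and members named by entries were chosen after their values were seen. Other normalizations, filters, models and sample sets were tried as alternatives, among them leaving out each batch. 1 gene among the treatment checks is not reported here. The edgeR fit was tested on simulated counts with known changes. Those counts held no batch in which treated libraries differed from Vehicle as in batch 2, so they do not bear on that case.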

Additional observations from a re-analysis of the deposited data

Results flagged for a closer look

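Levels of 18 named members in each treatment and the within-batch medians of the 4 lists in each of 6 comparisons were examined for a highest or lowest value whose gap to the next exceeded Dixon's 95% critical value. Of 96 groups examined, 29 held such a value, where chance gives about 1 in 20 (4.8 of 96), and groups that share a batch are not independent. Many of the 18 members were named for a low p in these same data, so that rate is only a rough guide. Of the 29, 18 lay in batch 2, 9 in batch 1, and 1 each in batches 3 and 6.

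In batch 2, the outlying levels were all on the high side and all in treated libraries. They were XBP1 with TGF-β (220 CPM), IL-6 (257 CPM) and IL-4 + IL-13 (205 CPM), MANF with the same treatments (199.5, 246 and 185 CPM) and CRELD2 (79.5, 103 and 84.5 CPM). HSPA5 with IL-6 stood at 1586 CPM, HYOU1 at 418 CPM with IL-6 and 336 CPM with IL-4 + IL-13, and EDEM1 at 50.1 CPM with IL-6. Of the within-batch medians, those of the ATF6 arm (1.08), the IRE1-XBP1 arm (0.49) and the secretory folding factors (0.68) with TGF-β, and of the IRE1-XBP1 arm (0.59) and the secretory folding factors (0.84) with IL-6, were outlying in batch 2, on the log2(CPM + 1) scale. These treated libraries also had the highest cell cycle marker sums of the series, whose part in the values was not tested.

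In batch 1, the outlying Vehicle levels were those of ATF6 (101 CPM), CREB3L2 (259 CPM), HSPA5 (1188 CPM), HSP90B1 (1803 CPM), SEC61B (54.4 CPM) and SERPINH1 (418 CPM). With TGF-β they were CREB3L2 (288 CPM) and SERPINH1 (526 CPM), and with IL-6 CREB3L2 (245 CPM). Each was the highest of its group. Outside these batches, ERN1 with IL-6 was lowest in batch 3 (10.1 CPM, the others at 13.1 to 14.4 CPM) and DNAJB9 with IL-4 + IL-13 was highest in batch 6 (105 CPM, the others at 81.4 to 88.8 CPM).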

How the results depend on the processing

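Of all entries, edgeR called 102 (TGF-β against Vehicle), 0 (IL-6 against Vehicle), 186 (IL-4 + IL-13 against Vehicle), 874 (TGF-β against IL-4 + IL-13), 23 (TGF-β against IL-6) and 134 (IL-4 + IL-13 against IL-6), and DESeq2 called 526, 167, 583, 1567, 500 and 377. Without the replicate block, these were 0, 0, 13, 51, 0 and 14, and 0 of 36 members were called. Fits of only the 2 groups compared gave 0 and 27 (TGF-β, then IL-4 + IL-13, against Vehicle) and 104 and 233 (the same against IL-6). Without the Vehicle library of batch 2, chosen after the data were seen, the direct comparisons gave 1443, 164 and 220, and without those of batches 2 and 4 they gave 1676, 236 and 250. For TGF-β against IL-6, filterByExpr gave 50 and no filter 14. Leaving out each batch in turn gave 1 to 133, 0 to 0, 76 to 234, 390 to 1423, 1 to 70 and 66 to 227, batch 2 giving the highest count where it changed and batch 3 the lowest, tied with batch 5 for TGF-β against Vehicle and against IL-6, except in the last, where it was batch 6. Among the members, 0 were called when any 1 batch was left out. TGF-β against Vehicle gave 2 with DESeq2 and 1 (EDEM1) with filterByExpr, with first entries only and with entries summed, and TGF-β against IL-4 + IL-13 gave 2 with DESeq2 and 3 without the Vehicle library of batch 2 or those of batches 2 and 4. The log2 fold change of ATF6 changed sign. For TGF-β it was 0.000641 with DESeq2, 0.000199 with RLE factors, 0.00107 with upper-quartile factors, 0.00513 with entries summed, 0.00403 with first entries, 0.00821 without the block, and -0.0704 to 0.0539 over batches left out. For IL-6 and IL-4 + IL-13 it was -0.0296 and -0.0447 without the Vehicle library of batch 2, -0.0232 and -0.0369 without those of batches 2 and 4, and -0.0309 to 0.0826 and -0.0358 to 0.068 over batches left out. The cause of these changes was not tested. DERL3 is limited by depth, with 1 to 24 counts.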
